A study of Mus musculus with 8 samples.

Results

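The 41 genes described here carry or restrain the signal of the B cell receptor, and they were chosen by name, from the signaling chains of the receptor to the NFAT factors at the end of its calcium branch. All 41 were found among the 53242 genes of the deposited tables. Their RNA was measured in 8 libraries of splenic B cells, 4 from control and 4 from 4A1 KO mice, all C57BL/6 and 8 to 12 weeks of age. Control mice were Eif4a1+/+ CD23-cre and 4A1 KO mice were Eif4a1fl/fl CD23-cre, so the Cre transgene was present in both genotypes. Cd23-cre acts in splenic immature B cells, and the loxP sites of the floxed allele lie on both sides of exons 2 to 4 of Eif4a1, which encodes an RNA helicase of translation initiation. The cells were isolated with a B cell isolation kit and activated over 24 h on irradiated CD40LB cells with 40 ng/ml of IL4. CD40LB is a feeder line that presents CD40 ligand and BAFF, and it was removed with an antibody before RNA was isolated. No ligand of the B cell receptor is listed for the culture. Replicates 1 and 3 were males and replicates 2 and 4 females. The labels put replicates 1 and 2 in batch A, and 3 and 4 in batch B. Replicate 1 of both genotypes had low viability and was left out by the study. The tests therefore used replicates 2 to 4 (n = 3 mice per genotype), and single values are shown for all 8 mice.

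The B cell receptor is a membrane immunoglobulin that has almost no cytoplasmic part of its own and signals through the paired chains CD79A and CD79B. Kinases of the SRC family phosphorylate these chains, SYK docks on them, and an assembly of BLNK, BTK and PLCG2 then releases the second messengers that open the calcium and protein kinase C branches, while PI3K and AKT form a parallel branch. Phosphatases and inhibitory adaptors restrain each of these steps. CD40 and the IL4 receptor, which were engaged in this culture, use signaling chains of their own.

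The libraries held between 31727557 and 43210858 counts, and a member held between 122 and 22744 counts in a library. Eif4a1 itself had 825, 748, 939.6 and 881 CPM (counts relative to library size, scaled by TMM factors) in controls 1 to 4 and 596, 556, 641 and 689 CPM in 4A1 KO 1 to 4. Every 4A1 KO library was lower, with a log2 fold change of -0.44 (SE 0.05, n = 3 per genotype, edgeR adjusted p = 0.000115). These counts cover the whole gene, including exons outside the loxP sites. The libraries carried the RNA of B cells: the 7 B cell markers (Ms4a1, Cd22, Pax5, Ebf1, Cd74, Fcer2a and H2-Aa) summed to between 13379 and 18655 TPM (the deposited abundance per transcript length) in control and between 15328 and 21482 TPM in 4A1 KO, with Cd22 alone called lower. The fibroblast list summed to 15.8 to 38.9 TPM in control and 9.33 to 26.2 TPM in 4A1 KO, with Lum and Dcn at 0 in all 8 libraries, Thy1 the most abundant gene in each library but control 2, where Col1a1 was (8.59 against 5.75 TPM), and 1 of 4 genes tested called lower. The T cell list summed to 14.7 to 23.6 TPM and 11.8 to 18.4 TPM, with Lck its most abundant gene at 8.95 to 20.7 TPM over the 8 libraries, with Cd3g at 0 and 0 of 3 genes tested called. The myeloid list summed to 2.76 to 5.32 TPM and 4.02 to 6.35 TPM, with S100a8 at 0 and 1 of 3 genes tested called higher. The plasma cell list (Sdc1, Prdm1, Xbp1, Jchain and Irf4) summed to 344 to 501 TPM in control and 263 to 351 TPM in 4A1 KO, and 3 of its 5 genes were called lower. What part these cells had in the values below was not tested.

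In 4A1 KO B cells 7 of the 41 members fell and 2 rose. The 7 were the receptor chains Cd79b and Cd79a, the kinases Syk and Blk, the PI3K catalytic subunit Pik3cd, the kinase Akt1 and the inhibitory adaptor Dok3. The 2 were the exchange factors Vav3 and Sos1. The words fell, rose and called are used where edgeR's quasi-likelihood test gave an adjusted p (Benjamini-Hochberg, over the 14218 genes tested) under 0.05 together with a log2 fold change beyond 0.5 in either direction. By this rule 17.1% of the members were lower, where 13.7% of all genes tested were, and 4.88% were higher, where 11.6% of all genes tested were. The share called lower was near that of all genes and so is not a result about the members. The median log2 fold change of the members was -0.19, with 32 below and 9 above 0, where 7026 of the 14218 genes tested were below 0, and 6 members within 0.07 of 0 (Akt2, Prkcb, Ppp3ca, Nfatc3, Ptprc and Dgkz) changed sign with other settings. The median over all genes tested was 0.01. The 41 members together took 0.644% to 0.748% of all counts in the 4 control libraries and 0.529% to 0.619% in the 4 4A1 KO libraries, ranges that did not overlap. In whole cultures such as these, less RNA of a gene per cell and fewer cells that express it cannot be told apart. Of the 32 members not called, 17 had an adjusted p under 0.05 with a smaller difference, 13 of them lower and 4 higher, and 15 did not pass that test. By the adjusted p alone, whatever the size of the difference, 26 of the 41 members passed (63.4%), where 53.0% of all genes tested did, so that passing it is no result about a single member. These were 20 lower (48.8%, beside 26.7% of all genes) and 6 higher (14.6%, beside 26.3%). With replicate 2, 3 or 4 left out in turn, 17 of the 26 passed the adjusted p each time, and the other 9 lost it without replicate 2 (Plcg2, Pik3ca and Stim1), without replicate 3 (Pik3r1, Itpr1 and Nfatc2) or without either one of them (Pik3ap1, Bcl10 and Ptpn6). In the current annotation 13 members share bases with another gene on the same strand, among them Cd79a, Pik3cd and Akt1 of those called, and 29 with a gene on the opposite strand, whose reads the strand-specific counting separates.

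**Figure D1:**
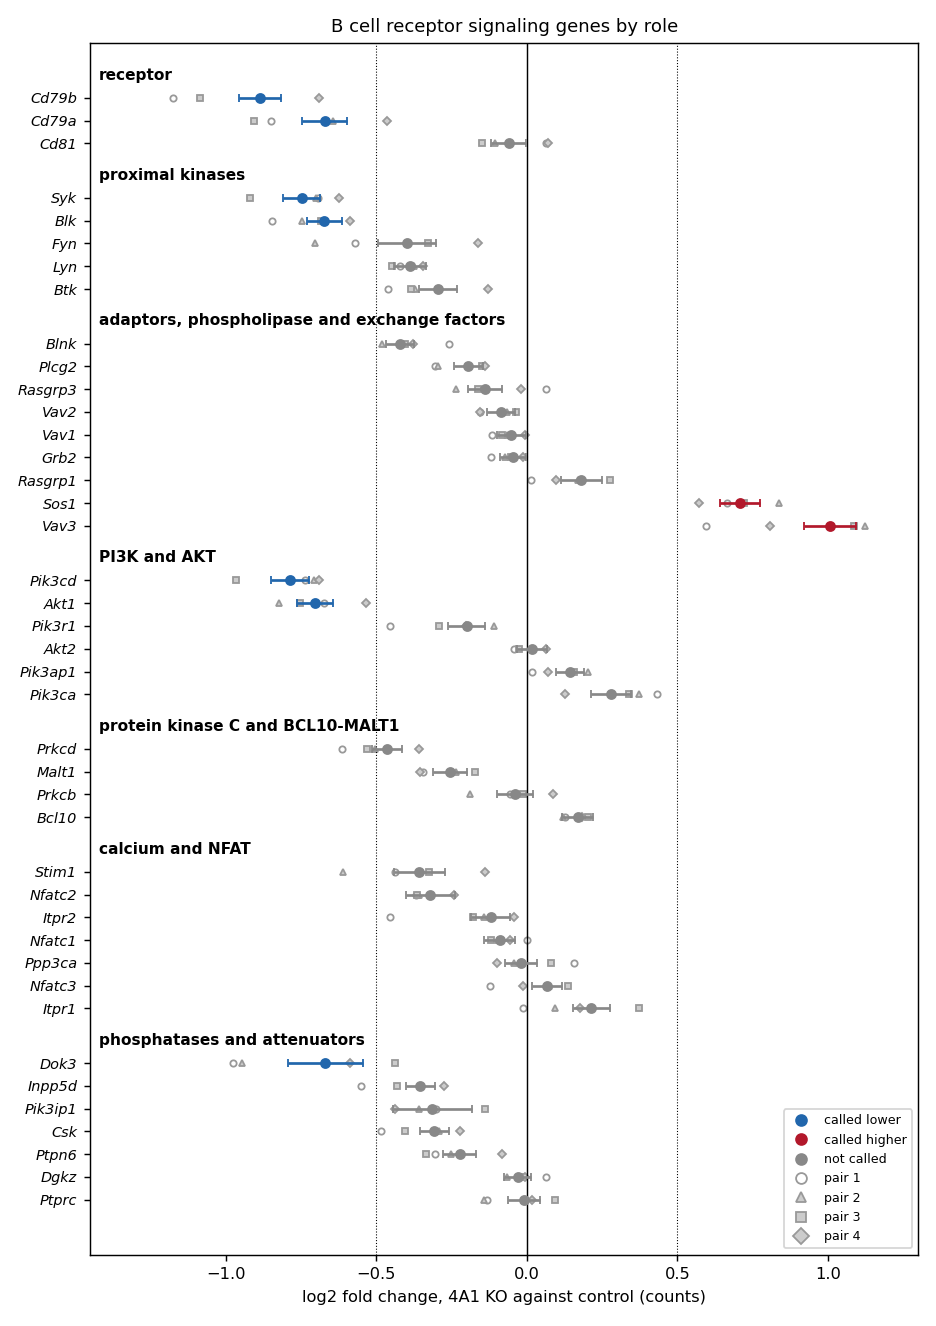
Log2 fold change in counts of each of the 41 members (x axis, 4A1 KO against control), grouped by role. Large points are the edgeR estimates from replicates 2 to 4 with bars of 1 standard error, small grey symbols are the differences of the 4 same-numbered pairs, dotted lines mark the fold change threshold of 0.5 in either direction, and the called members run from Cd79b at -0.89 to Vav3 at 1.01.

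The promoters of 3 called members are printed, 1 each from the receptor, the PI3K branch and the exchange factors. These are Cd79a, a receptor chain that fell, Akt1, a kinase that fell, and Vav3, an exchange factor that rose. They come from RefSeq on the build GRCm38.p6, run from 250 bases before to 50 bases after an annotated start, and are written 5′ to 3′ along the gene. RefSeq windows were found for 34 of the 41 members and not for Cd79b, Blk, Lyn, Malt1, Itpr1, Ppp3ca and Nfatc1. Cd79b, the receptor chain that fell by more, could therefore not be printed. Capitals mark every match, on either strand, to 7 short motifs: the EBF core CCCNNGGG, the octamer ATGCAAAT, the MYC E-box CACGTG, the GC box GGGCGG, the CCAAT box, the cAMP response element TGACGTCA and AGGAAGT, an ETS site of the type bound by PU.1. Matches of the EBF core and the GC box can overlap. The motifs were chosen with the members known, and a match is a match of letters only.
Cd79a (chr7:24897247-24897546, plus strand): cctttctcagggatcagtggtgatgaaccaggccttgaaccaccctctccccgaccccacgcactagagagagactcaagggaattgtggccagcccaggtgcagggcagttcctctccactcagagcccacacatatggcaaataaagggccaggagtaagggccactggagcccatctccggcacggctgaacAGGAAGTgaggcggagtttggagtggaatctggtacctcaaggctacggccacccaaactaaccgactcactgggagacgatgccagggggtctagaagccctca
Akt1 (chr12:112674227-112674526, minus strand): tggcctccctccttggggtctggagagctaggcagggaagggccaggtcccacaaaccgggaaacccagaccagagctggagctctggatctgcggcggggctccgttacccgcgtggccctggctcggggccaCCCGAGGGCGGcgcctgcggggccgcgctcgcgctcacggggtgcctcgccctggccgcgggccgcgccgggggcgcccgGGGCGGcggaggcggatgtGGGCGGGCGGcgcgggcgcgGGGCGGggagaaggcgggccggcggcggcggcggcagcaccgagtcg
Vav3 (chr3:109340433-109340732, plus strand): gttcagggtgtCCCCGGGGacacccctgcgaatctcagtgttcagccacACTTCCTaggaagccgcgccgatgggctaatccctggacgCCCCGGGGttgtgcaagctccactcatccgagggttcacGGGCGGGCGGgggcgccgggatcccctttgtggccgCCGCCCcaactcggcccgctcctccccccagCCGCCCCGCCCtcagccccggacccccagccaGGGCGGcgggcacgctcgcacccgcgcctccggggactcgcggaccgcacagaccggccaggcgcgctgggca
These windows held 1 match (Cd79a, the ETS site), 6 matches (Akt1, the EBF core and GC boxes) and 9 matches (Vav3, the EBF core, GC boxes and the ETS site), counted over all motifs. For each gene the window with the most matches is printed: the table holds 1 further window for Akt1, with 0 matches, and 2 for Vav3, with 7 and 4 matches. Counting a gene once if any of its windows held the motif, the GC box was found in 22 of the 34 members (64.7%) and in 38.2% of the 27025 genes with a window. The ETS site was found in 13 members (38.2%) and in 10.7% of all genes, the EBF core in 10 members (29.4%) and in 15.4% of all genes, and the CCAAT box in 12 members (35.3%) and in 41.1% of all genes. The E-box was found in 4 members (11.8%) and in 8.09% of all genes, the octamer in 2 members (5.88%) and in 1.97%, and the cAMP response element in 0 members and in 2.03%. Among called members the GC box was held by Akt1 and Pik3cd, which fell, and by Vav3, which rose. The shares of the members and of all genes are not matched. A gene with more windows has more chances of a match, and the 27025 genes include genes not tested here.

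Transcript level, taken per length as TPM, ranged over the members from 5.10 for Pik3ip1 to 771 for Cd79b in control. Cd79b stood highest in control at 771 ± 37.4 TPM (SD, n = 3), followed by Ptpn6 at 377 ± 68.1, Cd79a at 361 ± 109 and Grb2 at 299.8 ± 28.6 TPM, and the spreads of the last 3 overlapped. In 4A1 KO Cd79b was still the highest member at 416 TPM, but Ptpn6 at 320.4 and Grb2 at 285 TPM were then above Cd79a at 224 TPM. The lowest members in control were Pik3ip1, Nfatc2 at 5.14, Itpr2 at 5.94 and Vav3 at 6.16 TPM. The members that fell included some of the most abundant and, in Dok3 at 8.54 TPM, also 1 of the scarcest. Both that rose were scarce, and 4A1 KO brought Vav3 to 12.2 and Sos1 from 9.26 to 14.9 TPM. Tested on TPM with limma, on the log2(TPM + 1) scale over 12976 genes, 6 members were called lower (14.6%, beside 11.8% of all genes) and 2 higher (4.88%, beside 8.42%). The 8 were the same members as in counts without Dok3, whose difference in TPM was -0.48.

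**Figure D2:**
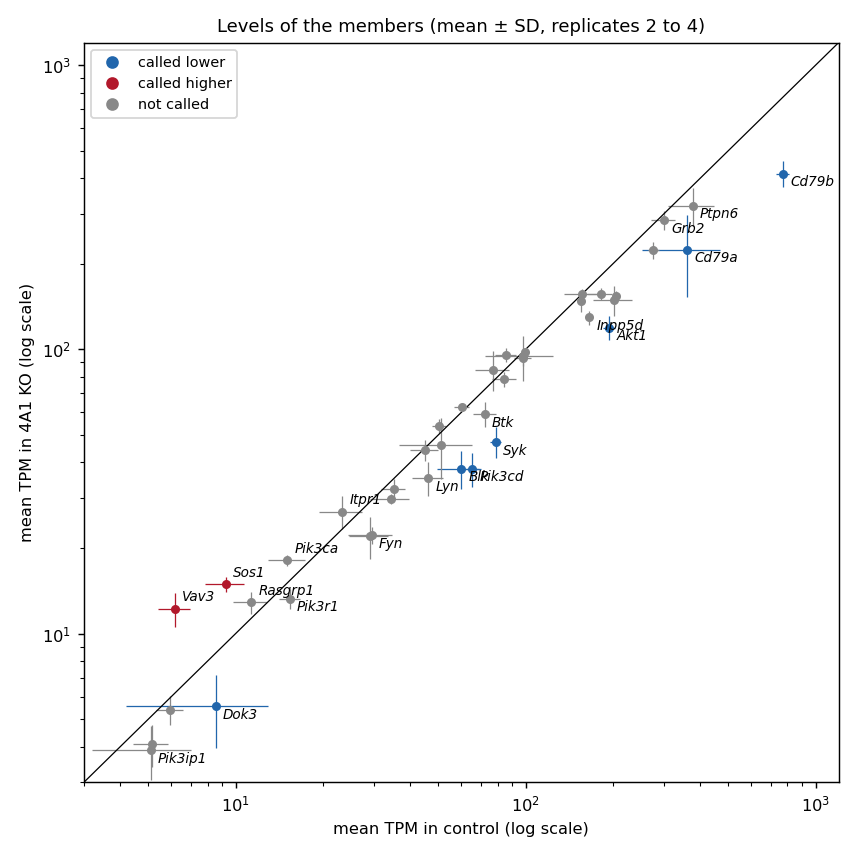
Mean TPM of each member in control (x axis) and in 4A1 KO (y axis), both on log scales, with bars of 1 SD over replicates 2 to 4 (n = 3 per genotype). Points below the diagonal are lower in 4A1 KO, and Cd79b (771 TPM in control, 416 in 4A1 KO) lies farthest to the right, while Vav3 (6.16 and 12.2 TPM) lies above the line among the scarce transcripts.

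Both signaling chains of the receptor fell, and the tetraspanin Cd81 did not pass the test. Cd79b (ENSMUSG00000040592, chr11:106202167-106205588, minus strand, build GRCm39) encodes the Igβ chain and had 568, 482, 526 and 473 CPM in controls 1 to 4 and 252, 261, 248 and 293 CPM in 4A1 KO 1 to 4. The lowest control lay far above the highest 4A1 KO library, and the log2 fold change was -0.89 (SE 0.07, n = 3 per genotype, edgeR adjusted p = 2.31e-05), a fall of 45.9%. Cd79a (ENSMUSG00000003379, chr7:24596740-24601622, plus strand) encodes the partner chain Igα, which pairs with Igβ. Cd79a had 339, 364, 240.4 and 198 CPM in controls 1 to 4 and 188, 233, 128 and 143 CPM in 4A1 KO 1 to 4. Here the genotypes overlapped, since the batch A 4A1 KO library of replicate 2 was above control 4, yet the 4A1 KO library was lower in each of the 4 same-numbered pairs, by between 0.47 and 0.91 on the log2 scale. The log2 fold change with batch and sex in the model was -0.67 (SE 0.08, n = 3 per genotype, edgeR adjusted p = 0.000118). Without these covariates the value was -0.67 as well, but the adjusted p was 0.0908, the highest over 15 alternatives, and the gene was not called (lowest 1.00e-15). Cd81, a tetraspanin of the co-receptor, had means of 125 ± 1.71 CPM in control and 120.3 ± 8.60 CPM in 4A1 KO (SD, n = 3) and a log2 fold change of -0.06 (SE 0.06, adjusted p = 0.400). Cr2, which encodes complement receptor 2 and is not a member, was called lower at -1.10 (SE 0.11, edgeR adjusted p = 7.82e-05), and it is named here after its values were seen. The ratio of Cd79a to Cd79b in TPM ranged from 0.363 to 0.656 in control and from 0.419 to 0.772 in 4A1 KO, with overlap between the genotypes.

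Among the proximal kinases Syk and Blk fell past the threshold and Fyn, Lyn and Btk were lower by less, and all 5 had an adjusted p under 0.05 and were lower (median -0.40), where 26.7% of all genes were lower by that rule. Syk (ENSMUSG00000021457, chr13:52736696-52802828, plus strand), the kinase that binds the phosphorylated chains, had 202, 228, 207 and 203 CPM in controls 1 to 4 and 125, 140.1, 109 and 131 CPM in 4A1 KO 1 to 4. Every control was far above every 4A1 KO library, and the log2 fold change was -0.75 (SE 0.06, n = 3 per genotype, edgeR adjusted p = 2.97e-05), a fall of 40.5%. Blk (ENSMUSG00000014453, chr14:63610285-63654587, minus strand), a SRC-family kinase largely restricted to B cells, had 81.0, 87.1, 60.0 and 63.3 CPM in controls 1 to 4 and 45.1, 51.9, 37.4 and 42.2 CPM in 4A1 KO 1 to 4. Its highest 4A1 KO library was below its lowest control library although both batches differed in level, and the log2 fold change was -0.67 (SE 0.06, n = 3 per genotype, edgeR adjusted p = 3.68e-05). Btk (chromosome X) encodes the TEC-family kinase that activates PLCG2, and had 100.4, 108, 91.2 and 89.7 CPM in controls 1 to 4 and 72.9, 83.9, 69.9 and 82.0 CPM in 4A1 KO 1 to 4. The 2 genotypes did not overlap here either, but the difference was smaller, at -0.29 (SE 0.06, n = 3 per genotype, edgeR adjusted p = 0.00416). Lyn, the main SRC-family kinase of B cells with both activating and inhibitory roles, had 76.4, 95.3, 76.3 and 74.6 CPM in controls 1 to 4 and 57.0, 73.5, 55.9 and 58.8 CPM in 4A1 KO 1 to 4. In each genotype the library of replicate 2 was the highest, no 4A1 KO library reached the controls, and the log2 fold change was -0.39 (SE 0.05, adjusted p = 0.000366). Fyn, a relative also known from T cells, was at -0.40 (SE 0.10, adjusted p = 0.00711) in the same edgeR fit. Fyn differed by -0.62 within batch A and by -0.25 within batch B, where batch A includes replicate 1. A processed copy, Gm11787, is 98.8% identical to Lyn over 1050 bases, so reads of the 2 may have been exchanged.

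**Figure D3:**
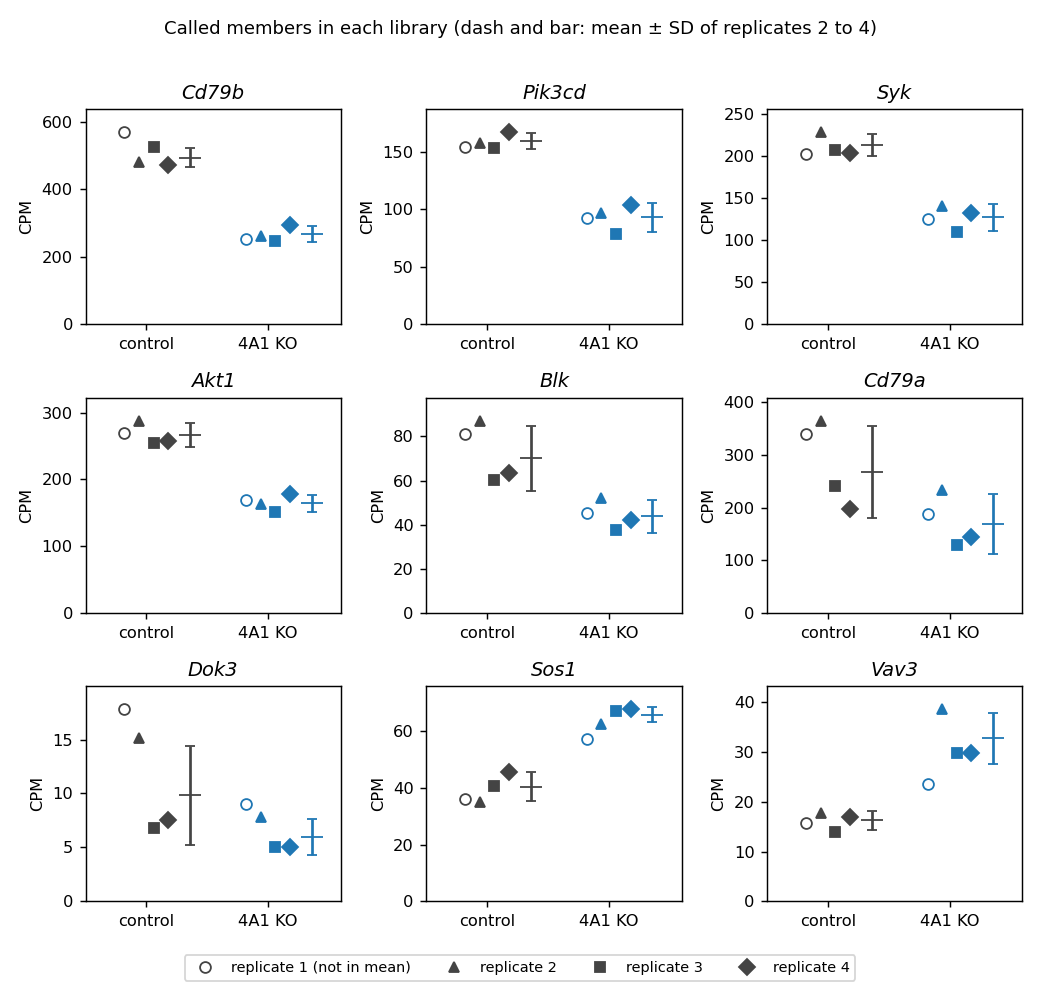
CPM of the 9 called members in each of the 8 libraries (y axis from 0), with 1 symbol per replicate, open for replicate 1, and a dash and bar for the mean ± SD of replicates 2 to 4. Cd79b, Pik3cd, Syk, Akt1 and Blk separate completely, Cd79a and Dok3 overlap, with batch A (circles and triangles) higher than batch B in both genotypes, and Vav3 and Sos1 are higher in every 4A1 KO library.

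Of the 9 adaptors, phospholipase and exchange factors, 2 were called higher, beside 11.6% of all genes, and 0 lower, beside 13.7% of all genes (median -0.05), counts too small to set the group apart. Vav3 (ENSMUSG00000033721, chr3:109247656-109593015, plus strand) encodes an exchange factor for RAC GTPases, and had 15.6, 17.7, 14.0 and 17.0 CPM in controls 1 to 4 and 23.6, 38.5, 29.8 and 29.8 CPM in 4A1 KO 1 to 4. Each 4A1 KO library was above each control, with 4A1 KO 2 the highest and 4A1 KO 1 the lowest of the 4, and the log2 fold change was 1.01 (SE 0.09, n = 3 per genotype, edgeR adjusted p = 3.33e-05). Its relatives did not pass the test: Vav1, the form found throughout blood cells, had a log2 fold change of -0.05 (SE 0.05, adjusted p = 0.392) and Vav2 one of -0.08 (SE 0.05, adjusted p = 0.160) in edgeR. Vav3 made up 2.91% to 3.49% of the summed TPM of the 3 Vav genes in control and 4.96% to 7.65% in 4A1 KO, so it remained a minor part of the family. Sos1 (ENSMUSG00000024241, chr17:80701180-80787897, minus strand), the RAS exchange factor recruited by GRB2, had 36.1, 35.1, 40.8 and 45.6 CPM in controls 1 to 4 and 57.3, 62.7, 67.2 and 67.7 CPM in 4A1 KO 1 to 4. No libraries overlapped, and the log2 fold change was 0.71 (SE 0.07, n = 3 per genotype, edgeR adjusted p = 4.84e-05), a rise of 63.5%. Grb2, the adaptor that carries SOS1, was at -0.05 (SE 0.04, adjusted p = 0.395), with means of 358 ± 42.3 CPM in control and 346 ± 34.0 CPM in 4A1 KO, and its copy Gm12791 is 98.0% identical over 655 bases.

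The RAS exchange factors that respond to diacylglycerol were not called. Rasgrp1 had a log2 fold change of 0.18 (SE 0.07, adjusted p = 0.0503) and Rasgrp3, the form that predominated here at 51.0 against 11.3 TPM in control, one of -0.14 (SE 0.06, adjusted p = 0.0668) in the edgeR fit. Blnk, the scaffold on which BTK and PLCG2 meet, had 237, 266, 196 and 213 CPM in controls 1 to 4 and 198, 191, 148 and 164 CPM in 4A1 KO 1 to 4. The genotypes overlapped by a small margin, 4A1 KO 1 lying above control 3, and the log2 fold change was -0.42 (SE 0.05, n = 3 per genotype, edgeR adjusted p = 0.000114), short of the fold threshold. Plcg2, the phospholipase that makes the calcium and protein kinase C messengers, had 408, 462, 375 and 396 CPM in controls 1 to 4 and 330.3, 377, 339 and 359 CPM in 4A1 KO 1 to 4. Here the 4A1 KO library of replicate 2 lay just above the lowest control, and the log2 fold change was -0.19 (SE 0.05, n = 3 per genotype, edgeR adjusted p = 0.00879). Blnk, Btk and Plcg2 were lower with an adjusted p under 0.05, as 26.7% of all genes were, by 25.3%, 18.4% and 12.6%, and none was called.

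Among the members of the PI3K branch the B cell catalytic subunit and 1 of the AKT kinases fell while the others did not. This does not extend to genes of the branch outside the members. Pik3cd (ENSMUSG00000039936, chr4:149732411-149787028, minus strand), which encodes the leukocyte catalytic subunit p110δ, had 154, 158, 153 and 167 CPM in controls 1 to 4 and 92.7, 96.6, 78.5 and 103 CPM in 4A1 KO 1 to 4. The ranges were far apart, and the log2 fold change was -0.79 (SE 0.06, n = 3 per genotype, edgeR adjusted p = 2.68e-05), a fall of 42.0%. Pik3ca, which encodes the widely expressed subunit p110α, was higher by less than the threshold, at 0.28 (SE 0.07, adjusted p = 0.00637) in edgeR. Akt1 (ENSMUSG00000001729, chr12:112620248-112645654, minus strand), whose promoter is printed above, had 269.7, 288, 255 and 258 CPM in controls 1 to 4 and 169, 163, 151 and 178 CPM in 4A1 KO 1 to 4. All 4 control libraries were above all 4 4A1 KO libraries, and the log2 fold change was -0.70 (SE 0.06, n = 3 per genotype, edgeR adjusted p = 3.46e-05). Akt2 stood at 0.02 (SE 0.05, adjusted p = 0.791), with means of 109 ± 8.68 CPM in control and 109.9 ± 6.19 CPM in 4A1 KO. Reads of Akt2 cannot all be told from those of its pseudogene Akt2-ps, which is 98.6% identical over 1449 bases. Pik3r1, which encodes the regulatory subunit p85α, was at -0.20 (SE 0.06, adjusted p = 0.0209) and Pik3ap1, the adaptor BCAP that links the receptor to PI3K, at 0.14 (SE 0.05, adjusted p = 0.0320).

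Ratios between related members show these differences within each library, free of the scaling between libraries. The TPM of Pik3cd was 3.97 to 5.20 times that of Pik3ca in control and 1.76 to 2.27 times in 4A1 KO. The ratio of Akt1 to Akt2 was 3.54 to 4.11 in control and 2.11 to 2.35 in 4A1 KO. Those of Vav1 to Vav3 and of Vav2 to Vav3 were 14.5 to 17.5 and 11.7 to 15.9 in control, and 6.92 to 10.3 and 5.15 to 8.92 in 4A1 KO. These 4 of 15 ratios did not overlap between the genotypes (exact permutation test over 8 libraries, two-sided, p = 0.0286 each, the smallest p that 4 against 4 allow, and 0.107 after Benjamini-Hochberg adjustment over the 15). The other 11 ratios overlapped, among them Lyn to Fyn, Vav1 to Vav2, Rasgrp1 to Rasgrp3 and those of the NFAT genes. A ratio of this kind shows unequal change of 2 genes and not which of them changed.

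**Figure D4:**
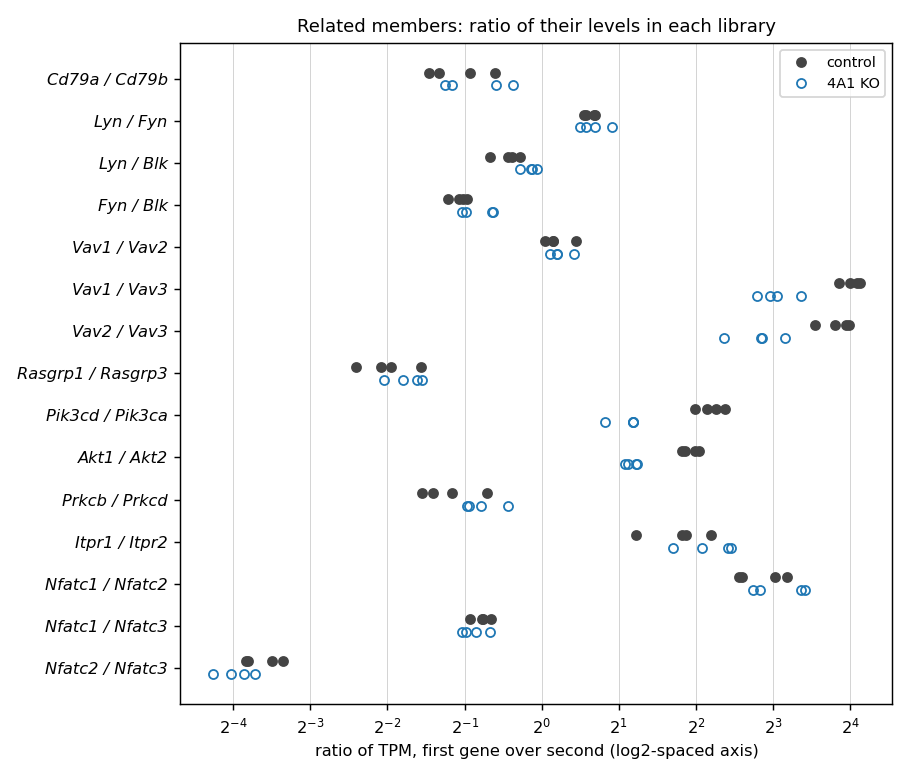
Ratio of the TPM of the first to the second gene (x axis, spaced on a log2 scale) for 15 pairs of related members, with 1 point per library, filled for the 4 control and open for the 4 4A1 KO libraries. Only Pik3cd to Pik3ca (3.97 to 5.20 against 1.76 to 2.27), Akt1 to Akt2 and the 2 ratios over Vav3 separate the genotypes.

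No member of the protein kinase C and BCL10-MALT1 branch was called, where 13.7% of all genes were called lower and 11.6% higher. With 4 members this does not set the branch apart. Of the 4, 3 passed the adjusted p in either direction, as 53.0% of all genes did. Prkcd, a protein kinase C that in B cells is known for limiting responses to self, had 339, 303, 288 and 275 CPM in controls 1 to 4 and 222, 214, 199 and 215 CPM in 4A1 KO 1 to 4. The genotypes did not overlap, and the log2 fold change was -0.46 (SE 0.05, n = 3 per genotype, edgeR adjusted p = 0.000102). It came closest to the fold threshold of all members not called, and with all 8 libraries it passed it at -0.50. Prkcb, the isoform that carries the receptor's signal to NF-κB, was at -0.04 (SE 0.06, adjusted p = 0.615). Its partners downstream, the adaptor Bcl10 and the paracaspase Malt1, went in opposite directions by small amounts, at 0.17 (SE 0.05, adjusted p = 0.0198) and -0.26 (SE 0.06, adjusted p = 0.00452) in edgeR.

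The calcium and NFAT branch had no called member among 7, where 13.7% of all genes were called lower and 11.6% higher. With 7 members this does not set the branch apart. Its log2 fold changes lay between -0.36 and 0.21. Stim1, the calcium sensor of the endoplasmic reticulum, was at -0.36 (SE 0.09, adjusted p = 0.00713), Nfatc2 at -0.32 (SE 0.08, adjusted p = 0.00971) and Itpr1, a calcium release channel, at 0.21 (SE 0.06, adjusted p = 0.0164), the 3 of 7 that passed the adjusted p in edgeR in either direction, where 53.0% of all genes did. None of the 3 passed it with each replicate left out: Stim1 was at -0.23 (edgeR adjusted p = 0.0546) without replicate 2, and without replicate 3 Itpr1 was at 0.14 (adjusted p = 0.123) and Nfatc2 at -0.29 (adjusted p = 0.0618). Itpr1 did not pass with all 8 libraries either (adjusted p = 0.0844). Itpr2, a second channel of that family, was at -0.12 (SE 0.07, adjusted p = 0.156). Ppp3ca, a catalytic subunit of calcineurin, which activates NFAT, was at -0.02 (SE 0.05, adjusted p = 0.780) and Nfatc1 at -0.09 (SE 0.05, adjusted p = 0.167) in edgeR. Nfatc3, the most abundant NFAT gene here at 60.2 TPM in control, was at 0.07 (SE 0.05, adjusted p = 0.283). Ppp3ca and Nfatc3 are among the members whose sign changed with other settings.

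The 7 phosphatases and attenuators had a median log2 fold change of -0.31. Each value was below 0, as 7026 of the 14218 genes tested were, Ptprc and Dgkz only just and not under every setting. Of the 7, Dok3 was called lower, where 13.7% of all genes were. Dok3 (ENSMUSG00000035711, chr13:55671044-55677109, minus strand) encodes an adaptor that inhibits signaling downstream of the receptor, and had 17.8, 15.1, 6.79 and 7.58 CPM in controls 1 to 4 and 9.05, 7.84, 5.01 and 5.04 CPM in 4A1 KO 1 to 4. Controls 1 and 2 stood far above all other libraries and controls 3 and 4 lay within the 4A1 KO range, so the genotypes overlapped, while within each same-numbered pair the 4A1 KO library was lower. The log2 fold change was -0.67 (SE 0.12, n = 3 per genotype, edgeR adjusted p = 0.00187), with -0.94 within batch A and -0.51 within batch B. Without batch and sex in the model its adjusted p was 0.121, and over 15 alternatives it ranged from 7.08e-05 to 0.192. Inpp5d, which encodes the lipid phosphatase SHIP1 that opposes PI3K, had 407, 393, 377 and 375 CPM in controls 1 to 4 and 278, 307, 279 and 311 CPM in 4A1 KO 1 to 4. Its genotypes did not overlap, and its log2 fold change was -0.35 (SE 0.05, adjusted p = 0.000325). Csk, the kinase that holds SRC-family kinases inactive, was at -0.31 (SE 0.05, adjusted p = 0.000871) in edgeR and did not overlap between the genotypes either. Ptpn6, which encodes the tyrosine phosphatase SHP-1, was at -0.22 (SE 0.06, adjusted p = 0.00825). Ptprc, which encodes CD45, a phosphatase that also activates SRC-family kinases, and Dgkz, a diacylglycerol kinase, were at -0.01 (SE 0.05, adjusted p = 0.885) and -0.03 (SE 0.05, adjusted p = 0.60), and Dgkz varied least, with means of 177 ± 0.959 CPM in control and 173 ± 2.80 CPM in 4A1 KO. Pik3ip1, an inhibitor of PI3K and the scarcest member, was at -0.31 (SE 0.13, adjusted p = 0.0735).

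With replicate 1 included, and without any model, 12 members had every 4A1 KO library below every control library in CPM (29.3%, beside 19.6% of 14211 genes) and 2 had every 4A1 KO library above (4.88%, beside 17.2%), while 27 overlapped. The 12 were Cd79b, Lyn, Fyn, Blk, Syk, Btk, Pik3cd, Akt1, Prkcd, Malt1, Csk and Inpp5d, and the 2 were Vav3 and Sos1. For each of these 14 the exact permutation test gave p = 0.0286 (two-sided, not adjusted), the smallest p that 4 against 4 allow. This p follows from the lack of overlap and adds nothing to it, and the test takes no account of batch or sex. All 5 proximal kinases are in the first group. In TPM Blnk and Plcg2 did not overlap either, while Malt1 did.

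The 2 batches differed in several members, which is shown because it bears on Cd79a and Dok3. In a fit of all 8 libraries, 3 members were called lower in batch B than in batch A (background 3.33% of all genes), Pik3ip1 by -1.15, Dok3 by -0.98 and Cd79a by -0.66 in log2, and 0 were called higher (background 3.42%). By the adjusted p alone 16 of the 41 members were lower in batch B, beside 13.0% of all genes, and 5 of the 41 were higher, beside 15.2%. The labels give the batches as letters, and the study's methods treat them as experimental batches. For sex 0 members were called (background 2.43% of all genes, either direction), and 3 had an adjusted p under 0.05 in edgeR (7.32%, near the 6.88% of all genes), Itpr1 with -0.43, Prkcb with -0.38 and Pik3r1 with -0.28 for males minus females. The edgeR interactions of the genotype with sex and with batch gave 0 members at an adjusted p under 0.05. Of all 14211 genes they gave 0 for sex and 1 for batch, so that 0 is no result about the members. At an unadjusted p under 0.05 were 2 members for sex, where 405 of all genes were, and 3 members for batch, where 610 of all genes were. The largest sex interactions were those of Cd79b at -0.35 (SE 0.10) and Cd79a at -0.32 (SE 0.13), males minus females. All 9 called members had the same sign within batch A as within batch B, as 36 of the 41 members did. Cd79b was at -1.01 within batch A and -0.89 within batch B, Syk at -0.68 within batch A and -0.77 within batch B and Vav3 at 0.88 within batch A and 0.94 within batch B.

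**Figure D5:**
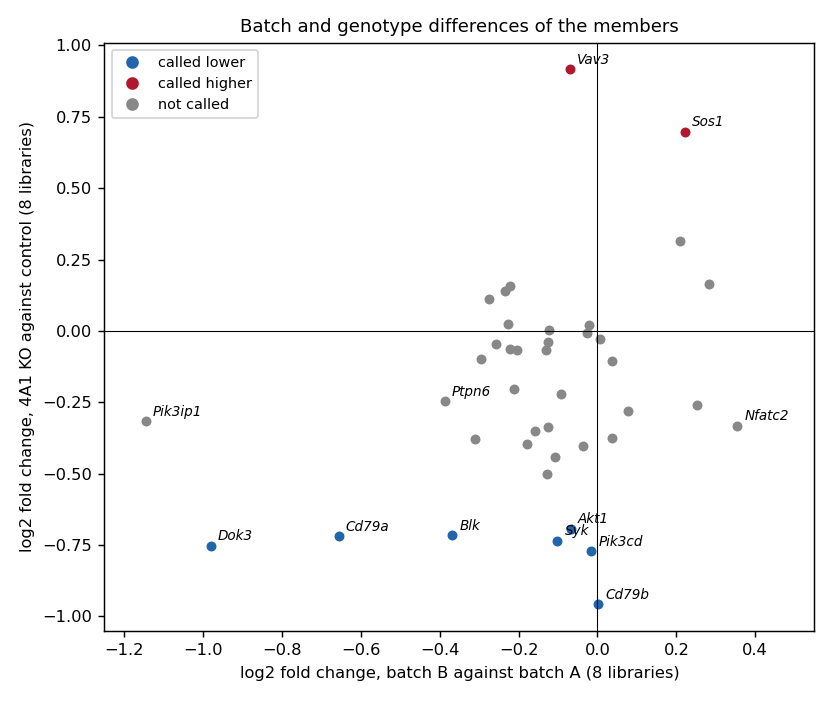
Log2 fold change of each member for batch B against batch A (x axis) and for 4A1 KO against control (y axis), both from 1 fit of the 8 libraries. Cd79b, Pik3cd, Akt1 and Syk lie near 0 on the batch axis and low on the genotype axis, while Dok3 (-0.98 for batch) and Cd79a (-0.66) are low on both and Pik3ip1 (-1.15) mainly differs by batch.

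A feature that the choice of members did not use is the base composition of their transcripts. Across the 41 members the log2 fold change and the GC content of each gene's longest protein-coding transcript had a Spearman rank correlation of -0.51, and over 14178 genes tested the same measure was -0.06. For transcript length the values were 0.34 and 0.06. These are correlations across genes within the same libraries, and genes are not independent replicates. The 7 members that fell had transcripts of 54.1% (Blk) to 62.0% GC (Dok3), while Sos1 had 43.1% and Vav3 47.1%. Members not called lay in the same ranges of GC. Dgkz at 59.5% GC differed by -0.03 and Vav2 at 57.0% by -0.08, while Malt1 at 44.7% differed by -0.26 and Lyn at 46.0% by -0.39. A fit in which each library was corrected for GC content called the same 9 members, with Cd79b at -0.86, Akt1 at -0.71 and Vav3 at 1.00.

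Outside the members, 61 further genes of the B cell receptor pathway were listed from textbook knowledge, and all were found. Of the 60 tested, 11 were called lower (18.3%) and 4 higher (6.67%), with a median log2 fold change of -0.04, shares that can be read against the same 13.7% and 11.6% of all genes. Bank1, a scaffold that links the receptor to calcium release, had 158, 196, 146 and 145 CPM in controls 1 to 4 and 71.0, 67.1, 46.3 and 54.3 CPM in 4A1 KO 1 to 4. The lowest control was above the highest 4A1 KO library by a wide margin, and at -1.54 (SE 0.06, n = 3 per genotype, edgeR adjusted p = 8.54e-06) the change exceeded that of every member. Ighm, the heavy chain of the IgM receptor itself, fell by 0.57 (SE 0.06) and Itpr3, a calcium release channel, by 0.53 (SE 0.05) on the log2 scale. Prkca, a protein kinase C outside the members, rose by 0.88 (SE 0.06) and the adaptor Pag1, which recruits CSK, by 0.59 (SE 0.05).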

How the data were processed

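RNA was sequenced from 8 libraries, each from the B cells of 1 mouse. The authors trimmed reads with Trim Galore 0.6.6, mapped them to GRCm39 with HISAT2 2.1.0, counted them with Seqmonk over merged isoforms in a strand-specific way and deposited raw counts without normalization. The TPM values were calculated by the authors with StringTie 2.1.1 and deposited. How reads with several matches were handled is not given in the sources used here. The 41 members, the role groups, the 61 further pathway genes and the motifs were chosen with earlier results of these data known.

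The counts were tested with edgeR 4.0.16 in R 4.3.3 (filterByExpr, TMM, quasi-likelihood test, two-sided, Benjamini-Hochberg) over all genes, in replicates 2 to 4, with batch and sex as covariates, which here equal the replicate number as a block. TPM were tested with limma 3.58.1 on log2(TPM + 1) where the mean TPM reached 1. On this scale the changes of scarce genes are understated. Pairing rests on the batch and sex in the labels. Same-numbered libraries deviated together (mean r across genes 0.547, lowest 0.469, and -0.271 for other pairs). Deviations were taken from the mean of 3 libraries per genotype, so the value for other pairs largely follows from that for same-numbered pairs. Single genes were compared over 8 libraries with exact permutation tests. Tests for sex and batch, and of interactions with them, used 8 libraries, and those of batch and sex alone were added after the data had been seen. CPM are scaled by TMM factors. All 41 members are named. The value in every library is given for called members and for Cd79a, Cd79b, Syk, Btk, Blnk and Plcg2, and also for Lyn, Prkcd and Inpp5d, which were chosen after their values were seen. Of the further pathway genes, the 3 called with the smallest adjusted p in each direction are named, except that a gene selected by this rule is not reported here. Gene coordinates, transcript GC content and length come from GENCODE M39 on GRCm39, and promoters from RefSeq on GRCm38.p6. The code was tested on simulated data: with 200 of 14218 genes changed by 1 in log2, edgeR found 168 of them and called 6 others. With no change it called 0. In the TPM test, limma found 162 of 170 among 11815 genes and called 5 others. Alternatives included DESeq2 1.42.0 and are described with the limits.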

Additional observations from a re-analysis of the deposited data

Results flagged for a closer look

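In each genotype the CPM of each member were examined for a library that stood apart from the other 3, by the gap to its nearest neighbour as a share of the whole range. Of the 82 groups of 4 libraries, 5 were past the 95% limit of 0.829, where chance alone gives 4.1. All 5 were libraries of replicate 2, the batch A females. Lyn was high in control 2, at 95.3 CPM with the next control at 76.4 (share 0.9124), and high in 4A1 KO 2, at 73.5 CPM with the next at 58.8 (share 0.8371). In control 2, Rasgrp3 was at 157 CPM with the next control at 97.3 (share 0.8543), and Prkcb was at 176 CPM with the next at 117 (share 0.8525). Vav2 was low in 4A1 KO 2, at 202 CPM with the next library at 213 (share 0.9477). None of these 4 genes was called, with or without replicate 2. What sets replicate 2 apart in these genes was not tested.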

How the results depend on the processing

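The members called in counts were the same 9 under DESeq2's size factors, upper quartile scaling, no filter on low counts, DESeq2 with and without shrinkage, batch B only and GC correction. Leaving out 1 replicate gave 7 to 9 lower and 2 higher. Fyn (-0.52) and Prkcd (-0.52) were added without replicate 4. Without the replicate block 5 were lower and 2 higher, with Cd79a (-0.67, adjusted p = 0.0908 in edgeR) and Dok3 (-0.72, adjusted p = 0.121) not called, and glmTreat gave the same 5 and 2. All 8 libraries, with either form of the block, gave 8 and 2, adding Prkcd, and batch A alone 10 and 2, adding Fyn, Prkcd and Stim1. In TPM 5 to 8 were lower and 2 higher over all settings, 5 of them without the block and 6 to 8 with 1 replicate left out. Further pathway genes called lower numbered 9 to 14 and higher 3 to 5 with 1 replicate left out, and 10 and 4 without the replicate block. Batch A only, GC correction, TPM for non-overlap and other size factors for the interactions were chosen after seeing the data. Over all genes, glmTreat called 987 lower and 640 higher, and DESeq2 with shrinkage 1498 and 1088, beside 1949 and 1647.

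Signs near 0 changed as follows, in log2 and with no call at either setting. Ppp3ca was at 0.002863 with upper quartile scaling, 0.02384 with batch and sex and 0.02379 with the replicate block in all 8 libraries, 0.0705 in batch A alone and -0.06562 to 0.01989 with 1 replicate left out. Prkcb was at 0.03589 in batch B alone and -0.1019 to 0.03589 with 1 replicate left out. Ptprc was at 0.01247 with upper quartile scaling, 0.05462 in batch B alone and -0.05694 to 0.05462 with 1 replicate left out. Akt2 ranged from -0.005238 to 0.04338 with 1 replicate left out. In batch A alone Nfatc3 was at -0.007787 and Dgkz at 0.01464. The causes were not tested. With 3 mice per genotype, differences near the fold threshold of 0.5 are the least certain, and Dok3 and Pik3ip1 had the fewest counts. Replicates are separate mice. The main fits include batch and sex, so their p-values rest on the spread of the genotype difference among same-numbered pairs. They leave out the spread between mice that same-numbered libraries share. In edgeR the SE of Cd79a was 0.08 with these covariates and 0.27 without them, and that of Lyn 0.05 and 0.13.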
